A study of Mus musculus with 5 samples.

Results

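PEP3_Trpm8 is the neuron type of the mouse dorsal root ganglion (DRG) that the authors named for the cold-gated ion channel Trpm8. Its members were the cells that carry this name in the deposited annotation, 168 of 3047 neurons, which fall into 12 types. The other annotated cells were 249 satellite glia and 56 endothelial cells. Lumbar ganglia of 5 untreated wild-type C57BL/6 mice, 3 males and 2 females aged 18 weeks, had been dissociated and profiled by droplet-based single-cell RNA-seq, in which each captured molecule is counted once by its unique molecular identifier (UMI). All mice form 1 group, so no treatment or genotype was compared. The cell names carry 5 library identifiers, each taken here as 1 mouse and numbered 1 to 5. Because the identifiers are not those of the sample labels, sex was not assigned to a library.

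Cold-sensing neurons are a small class of thin-fibred afferents that carry signals of cooling from the skin to the spinal cord. TRPM8 is their principal transducer, a cation channel of the TRP family that opens on cooling and in menthol. Nociceptin, made from the precursor Pnoc, is an opioid-related peptide, and TRPV1 is the heat- and capsaicin-gated channel of peptidergic nociceptors.

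The channel genes that the results turn on, Trpm8 and Trpv1, are shown by the 250 bases before their annotated start sites (RefSeq, GRCm38.p6, the assembly that mm10 denotes). The Trpm8 window is chr1:88306485-88306734 and the Trpv1 window is chr11:73233899-73234148, both on the plus strand. Capitals mark matches, on either strand, to 3 short motifs, the homeodomain core TAATTA, the RUNX core TGTGGT and the TATA box core TATAAA, and these matches do not overlap.
Trpm8: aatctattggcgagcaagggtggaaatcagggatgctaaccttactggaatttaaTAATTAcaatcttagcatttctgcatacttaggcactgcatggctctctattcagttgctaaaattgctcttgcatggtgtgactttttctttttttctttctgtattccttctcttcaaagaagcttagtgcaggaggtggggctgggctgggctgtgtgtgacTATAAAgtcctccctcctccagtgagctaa
Trpv1: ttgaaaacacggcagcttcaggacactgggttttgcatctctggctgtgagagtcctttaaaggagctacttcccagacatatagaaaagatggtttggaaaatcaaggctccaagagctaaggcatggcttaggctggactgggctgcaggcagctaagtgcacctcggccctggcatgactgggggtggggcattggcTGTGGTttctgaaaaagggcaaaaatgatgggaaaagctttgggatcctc
The Trpm8 window held TAATTA at bases 195 to 190 before the start and TATAAA at bases 30 to 25 before it, and the Trpv1 window held TGTGGT at bases 50 to 45. Of 32851 such windows in the table, 4.84% held TAATTA, 14% held TGTGGT and 12.4% held TATAAA. A match describes the letters and not a bound site. Of 131 genes that the naming rule chose, 96 had a window in the table.

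PEP3_Trpm8 was found in every mouse, at 3.34% to 6.58% of the cells. It numbered 9, 18, 28, 53 and 60 cells in mice 1 to 5, which is 5.49%, 3.34%, 5.91%, 6.58% and 4.38% of the cells of each mouse. The mean was 5.14% ± 1.29 of all cells and 5.89% ± 1.66 of the neurons (SD, n = 5). The exact 95% Clopper-Pearson intervals of the 5 shares, which cover counting error only, ran from 1.99% at the lowest bound to 10.2% at the highest and all overlapped.

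These were the neurons with the fewest molecules. The median cell held 30801 UMIs (range 13936 to 75043), the lowest of the 12 neuron types, against 38284 in the next type, PEP1_Slc7a3.Sstr2, and 65639 in the other neurons together. By mouse the median was 34974, 32249, 32494, 33700 and 25154 UMIs, and mouse 5 lay below the other 4. The summed counts of the type came to 332881, 681720, 980701, 1809612 and 1618142 UMIs, so mouse 1 gives the least precise values. The median mitochondrial share was 3.80%, against 4.69% in the other neurons, and 2 of the 168 cells exceeded 10%. There were 7 barcodes that occurred in more than 1 library, and 2 of the cells with them were in this type.

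The 2 markers of the type, Trpm8 and Pnoc, went with its label. Trpm8 stood at 78.1, 19.1, 52.0, 39.8 and 30.9 CPM (UMIs of the gene per 1000000 UMIs) in the summed cells of mice 1 to 5 and at 0.123 to 0.308 CPM in the summed other neurons of the same mice. Pnoc stood at 114, 35.2, 48.9, 88.4 and 39.6 CPM. In the 2879 other neurons only 3 Pnoc UMIs were counted in all, a pooled ratio of 4385 (95% counting interval 1488 to 21373). For neither gene did the groups overlap.

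Detection per cell was sparser than these ratios. A Trpm8 UMI was found in 90 of the 168 cells (53.6%, Clopper-Pearson 45.7% to 61.3%). That interval covers counting error over the pooled cells only, and the share ran from 38.9% in mouse 2 to 77.8% in mouse 1. Of 249 satellite glia 0 held a Trpm8 UMI, which allows up to 1.20% of such cells at a median of 17729 UMIs. With every cell thinned to 10000 UMIs, a step that equalises depth and left out no cell, the share was 44.4%, 27.8%, 46.4%, 34.0% and 23.3% in mice 1 to 5, a mean of 35.2% ± 10.1 (SD, n = 5). At that depth a Pnoc UMI was found in 22.6% of the cells and a Foxp2 UMI in 54.8%, against 0% and 2.81% of satellite glia. Among the 212 Trpm8 UMIs of the type, the most in 1 cell was 8.

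Markers of non-neuronal cells were low in these sums. The 10 satellite glia markers summed to 87.1 to 741 CPM, with mouse 2 highest and Cdh19 at 0, against 96037 CPM in the satellite glia themselves and 234 to 401 CPM in the other neurons. The 10 endothelial markers summed to 54.3 to 99.1 CPM, against 11965 CPM in endothelial cells and 45.9 to 64.3 CPM in the other neurons, and 4 of them (Flt1, Kdr, Tek and Emcn) were at 0. Schwann cell markers summed to 70.2 to 149.6 CPM, against 515 to 640 CPM in the other neurons. Those of fibroblasts and pericytes summed to 11.2 to 86.8 CPM, against 62.8 to 148 CPM. Those of macrophages summed to 0 to 54.4 CPM, with a median of 5.87 CPM, against 3.61 to 6.54 CPM. The highest macrophage sum thus lay above the range of the other neurons, and its source was not tested. Of the lists for other neuron types, the 3 NP_Mrgpra3 markers were all at 0 and the 4 NP_Nts markers summed to 0 to 4.33 CPM, against 143 to 529 CPM in the other neurons. The sums of the NP_Mrgprd, Th and PEP2 markers were also lower, with no overlap. The 5 Th markers were mixed: in the comparison below Slc17a8 was called higher, 3 were called lower and Th itself was not called. The 7 NF markers summed to 1247 to 1727 CPM against 1635 to 3496 CPM. Of these, Calb1 and Necab2 were called higher, Pvalb and Nefh lower and the rest not. The 5 PEP1 markers, with 5249.9 to 7738 CPM, lay above the 3758 to 5169.8 CPM of the other neurons. Most of this sum was Tac1, at a mean of 4981 CPM. The PEP1 markers did not move together either: in the comparison below Tac1 and Trpv1 were called higher, Calca lower and the rest not.

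The first comparison asked which genes set these neurons apart from the other 11 neuron types. Peptide precursors, transcription factors and channel genes that were near 0 elsewhere were high in them. The sodium channel genes Scn10a and Scn11a, the touch channel gene Piezo2 and the ATP receptor gene P2rx3 were low. In edgeR's quasi-likelihood test on UMIs summed per mouse (Benjamini-Hochberg adjusted p under 0.01 and at least 2-fold), 935 of 11660 genes were higher (8.02%) and 1271 were lower (10.9%). The authors had clustered these cells on the same counts, so the calls describe how steadily a gene differed over mice and are not independent evidence for the type. P-values measure the spread between these libraries.

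Of the 935 higher genes, 556 had their highest mean of all 12 types in PEP3_Trpm8, and 404 of the 1271 lower genes had their lowest mean there. Over all 11660 genes tested these numbers were 1623 and 1125. At 8-fold or more, 110 genes were higher and 377 lower. For the 556, the next-highest type was most often PEP1_Slc7a3.Sstr2 (119 genes), PEP1_Dcn (100) or NF_Pvalb (85). Groups did not overlap for 765 of the higher and 1199 of the lower genes, against 3997 of all genes tested. Summing the other neurons gives NP_Mrgprd, with 900 of the 2879 cells, the most weight. With each of the 11 types weighted equally 1270 genes were higher and 805 lower, so that higher genes were 61.2% of the calls, against 42.4% in the main comparison. In both weightings 804 genes were higher and 691 lower. The counts of each gene list below stand beside 8.02% higher and 10.9% lower over all genes in the main comparison. Because the calls over all genes moved toward higher with equal weights, the same move within a list is not particular to that list.

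The largest rises were led by a peptide precursor, a transcription factor and genes of other roles. Foxp2, a forkhead transcription factor on chromosome 6, stood at 99.1, 68.9, 114, 97.3 and 116 CPM in mice 1 to 5, and at 0.318 ± 0.122 CPM in the other neurons (log2 fold change 8.46, SE 0.21, adjusted p = 9.8e-14). A UMI of Foxp2 was found in 85.7% of the cells. Penk, the precursor of the enkephalins on chromosome 4, reached 667, 940.3, 436, 244 and 344 CPM against 1.70 ± 1.78 CPM (log2 fold change 8.34, SE 0.63). All of its UMIs came from 36.3% of the cells, and for both genes the groups did not overlap.

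Every gene named for the size of its rise had its highest mean of the 12 types here. They included the sodium-phosphate cotransporter gene Slc34a2 (17.1 ± 5.42 CPM, with 3 UMIs in all other neurons and a pooled ratio of 1116 (95% counting interval 369 to 5519)), the nuclear factor gene Tox (log2 fold change 7.47), the carboxypeptidase-like Cpxm2 (7.79), the metabotropic glutamate receptor Grm3 (6.71), the G-protein regulator Rgs16 (6.05) and Abi3bp (5.94). The transcript 8430422H06Rik (8.43) ranged from 24.5 CPM in mouse 3 to 173 CPM in mouse 2. Crabp2, a retinoic acid binding protein, and Atp1b2, a sodium pump subunit, had log2 fold changes of 5.91 and 5.84. After thinning, their UMIs were found in 16.1% and 18.5% of PEP3_Trpm8 cells but in 51.0% and 82.3% of satellite glia, and the part of glial RNA in their rise was not tested.

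**Figure D1:**
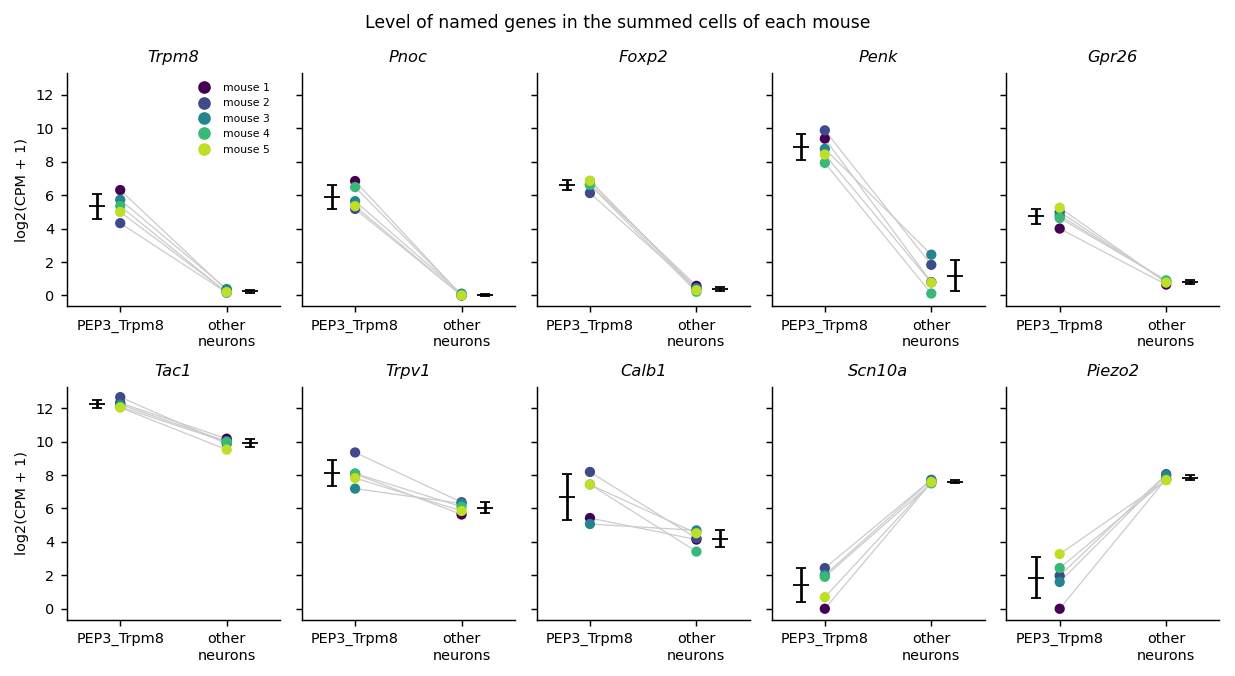
Level of 10 named genes, as log2(CPM + 1), in the summed PEP3_Trpm8 cells and the summed other neurons of each mouse, with 1 point per mouse and bars for the mean ± SD of the 5 log values. Trpm8, Pnoc, Foxp2, Penk, Gpr26, Tac1, Trpv1 and Calb1 lie above the other neurons in every mouse, while Scn10a and Piezo2 lie below.

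The largest falls were in genes that mark other nociceptors. Somatostatin (Sst) was at 0 in all 168 cells, at least 228-fold lower than in the pooled other neurons when set against a floor of 3 UMIs over the group. For Mrgprd, the receptor that names NP_Mrgprd cells, the count was 1 UMI against 21551, and for Nppb, an itch peptide, it was 1 UMI against 14181. Others with a large fall were the kainate receptor subunit Grik1 (log2 fold change -6.73), the zinc-finger factor Casz1 (-6.56), neurotensin Nts (-6.87), Tmem233 (-7.46), Paqr5 (-7.26) and Ctxn3 (-6.49). With equal weights Sst, Mrgprd, Nppb and Nts kept their direction but missed the threshold.

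Genes known from TRPM8 neurons were mostly higher. Of the 8 list members tested, 7 were higher and none lower (7 and none of 8 with equal weights), with a median log2 fold change of 6.53 beside -0.03 over all genes tested. The list was drawn up around this type, so its direction is no independent evidence. Gpr26, an orphan receptor, was at 26.6 ± 8.21 against 0.744 ± 0.116 CPM (log2 fold change 5.19), and Cdh8, a cadherin, at 46.2 ± 4.75 against 3.73 ± 0.886 CPM (3.64). Pirt, a membrane protein that modulates TRP channels, was at 90.7 ± 7.95 against 94.2 ± 4.48 CPM and was not called. Kcnk9 and Rxfp1 were not analysed here.

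The channels of temperature sensing differed in both directions. Among 20 cold and thermal sensing genes tested, 3 were higher and 6 lower (median log2 fold change -0.02), but 7 and 3 of 20 with equal weights. Trpv1 was at 267, 653, 145, 272 and 225 CPM in PEP3_Trpm8 and at 48.8 to 82.1 CPM in the other neurons, a log2 fold change of 2.21 (SE 0.29, adjusted p = 1.0e-05). Every mouse was higher and the groups did not overlap, and mouse 2 had more than the other 4. Of the 12 types PEP1_Dcn alone had a higher mean level of Trpv1, 459 CPM.

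Potassium channels help set the threshold of cold afferents. Kcnk2, which encodes the leak channel TREK-1, was higher at 139 ± 22.3 against 20.3 ± 3.81 CPM (log2 fold change 2.80). Kcnk10, which encodes TREK-2, and the chloride channel gene Ano1 were at 0 UMIs, at least 5.62-fold and 4.09-fold lower in pooled counts. Kcna1, a subunit of the Kv1 channels that damp excitation by cold, was lower at 41.5 ± 19.6 against 274 ± 118 CPM (log2 fold change -2.81). Against single types it was higher than in PEP1_Slc7a3.Sstr2 (log2 fold change 2.34) and was not called against PEP1_S100a11.Tagln2 (0.29). For Kcna2, another Kv1 subunit, the values were 126 ± 27.4 against 127 ± 40.4 CPM in the other neurons. Trpa1, the irritant channel, was lower at 0.562 ± 0.569 against 30.8 ± 5.32 CPM. With equal weights Ano1, Kcna1 and Trpa1 missed the threshold.

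Of 13 TRP channel genes tested, 3 were higher, Trpm8, Trpv1 and Trpc4, and 3 lower, but 6 and 1 of 14 with equal weights. Trpc6 was lower at 0.111 ± 0.247 against 12.6 ± 0.858 CPM and missed the threshold with equal weights. Trpc5 was at 0 UMIs in the type, and its highest mean elsewhere was 3.15 CPM in the Th type. The kainate receptor gene Grik2 was at 2.07 ± 2.14 against 1.33 ± 0.385 CPM and was not called.

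Opioid and tachykinin precursors were among the peptide genes raised here, and the precursor of CGRP was low. Of 22 neuropeptide genes tested, 8 were higher and 8 lower (median log2 fold change 0.21), but 9 and 2 of 26 with equal weights. Tac1, the precursor of substance P, was at 5095, 6485, 4769, 4347 and 4207 CPM against 734 to 1157 CPM, a log2 fold change of 2.35 (SE 0.14), with a UMI in every cell. Calca, the precursor of CGRP, was lower at 446 ± 111 against 3104 ± 414 CPM (log2 fold change -2.80), and after thinning a UMI of it was found in 81.5% of the cells and in 71.5% of satellite glia. Pdyn, the precursor of the dynorphins, was higher at 11.6 ± 5.72 against 0.132 ± 0.0914 CPM (5.87) and was found in 10.7% of the cells. The granin gene Scg2, at 1343 ± 307 against 395 ± 97.9 CPM (1.76), and the growth factor gene Igf1, at 7.52 ± 6.34 against 1.16 ± 0.490 CPM (2.73) with overlapping groups, were also higher, as were 2 further genes of the list. The opioid-related precursors Pnoc, Penk and Pdyn all had their highest mean of the 12 types here.

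Opioid receptor genes were sparse. Oprm1, the mu-opioid receptor, and Oprl1, the nociceptin receptor, were higher at log2 fold changes of 1.45 and 1.11, but the groups overlapped. Oprm1 missed the threshold without mouse 1, 2, 4 or 5 (adjusted p of 0.012 to 0.018) and Oprl1 without mouse 2, 3, 4 or 5 (0.011 to 0.029). Oprk1, the kappa-opioid receptor, was at 0 UMIs, at least 3.27-fold lower, and missed the threshold with equal weights. The vesicular glutamate transporter Slc17a6 had its highest mean of the 12 types here, at 343 ± 35.4 against 148 ± 16.0 CPM, while Slc17a7 was lower with 3 UMIs in all. For transmitter transport and synthesis as a list, 2 of 6 genes were higher and 3 lower, and 3 and 3 of 6 with equal weights.

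Among sodium channels Scn10a and Scn11a were low and some other members of the family were high. Of 14 genes tested, 3 were higher and 4 lower (median log2 fold change 0.16), but 5 and 3 of 14 with equal weights. Scn10a, which encodes the tetrodotoxin-resistant channel Nav1.8, was at 0, 4.40, 3.06, 2.76 and 0.618 CPM in mice 1 to 5, against 180.4 to 209 CPM in the other neurons (log2 fold change -6.44, SE 0.22). Scn11a, for Nav1.9, was at 3.47 ± 3.44 against 169.6 ± 17.5 CPM (-5.58). After thinning their UMIs were found in 3.57% and 1.79% of the cells, against 3.21% and 3.61% of satellite glia, a level read as background.

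Further genes of the family rose. Scn3a, for Nav1.3, was at 35.4 ± 3.55 against 5.29 ± 1.33 CPM (log2 fold change 2.80) and Scn2a1, for Nav1.2, at 23.5 ± 5.22 against 9.56 ± 1.12 CPM (1.35). The auxiliary subunit Scn2b was at 77.8 ± 11.3 against 18.2 ± 2.92 CPM (2.08). All had their highest mean of the 12 types here. Scn9a, for Nav1.7, was at 207 ± 26.6 against 255 ± 44.7 CPM and was not called.

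Among 53 potassium channel genes tested, 11 were higher and 27 lower (median log2 fold change -1.18), but 17 and 16 of 54 with equal weights. The small-conductance channel genes Kcnn3 and Kcnn2 (log2 fold changes 4.57 and 1.80) and the Kv12 gene Kcnh8 (4.41) were highest here of the 12 types. Kcnv1 was at 0 UMIs, at least 18-fold lower. The beta subunit genes Kcnab1 and Kcnmb1 were lower, at log2 fold changes of -5.77 and -5.67.

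Mechanical and acid sensing genes differed as well. Piezo2, the channel of touch, was at 0, 2.93, 2.04, 4.42 and 8.65 CPM, against 206 to 265 CPM in the other neurons (log2 fold change -5.59, SE 0.23), the lowest mean of the 12 types. Of 14 HCN, acid-sensing and mechanically gated channel genes, 3 were higher and 5 lower, and 3 and 3 of 16 with equal weights. Hcn4, a pacemaker channel gene, was higher at 13 ± 2.92 against 1.24 ± 0.209 CPM (3.42), and Asic1, a proton-gated channel gene, at 72.9 ± 15.3 against 18.2 ± 4.46 CPM (2.01). Of 11 calcium channel genes tested, Cacna1d and Cacna1h were higher and none lower, and 2 and none of 12 with equal weights.

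Transmitter receptors also differed in both directions. Of 34 ionotropic receptor genes tested, 6 were higher and 13 lower (median log2 fold change -0.52), but 12 and 6 of 34 with equal weights. All 6 that rose encode GABA-A or AMPA receptor subunits, with Gabra4 (log2 fold change 4.16) and Gabrb1 (3.87) highest here of the 12 types. P2rx3, the ATP receptor of nociceptors, was lower at 2.86 ± 2.46 against 163 ± 17.1 CPM (-5.78), and P2rx5 was at 0 UMIs, at least 5.98-fold lower. Of 21 calcium-binding and neurofilament genes 4 were higher and 4 lower, but 11 and 2 of 22 with equal weights. Hippocalcin, Hpca, a neuronal calcium sensor, was at 571, 500.2, 591, 582 and 464 CPM against 12.8 to 27.1 CPM (log2 fold change 4.68, SE 0.18), with no overlap.

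Calbindin, Calb1, was uneven across mice. It stood at 42.1, 290.4, 32.6, 172 and 171 CPM against 9.71 to 24.8 CPM in the other neurons (log2 fold change 3.03, SE 0.40). Every mouse was higher and the groups did not overlap, yet mice 1 and 3 were far below the other 3. Of the 12 types NF_Calb1 alone had more, 208 CPM.

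Lineage genes differed in both directions. Of 38 transcription factors tested, 8 were higher and 13 lower (median log2 fold change -0.35), but 15 and 7 of 40 with equal weights. After Foxp2 the largest rises were in Mef2c (log2 fold change 1.95), Rora (1.64) and Id3, whose log2 fold change turned to -0.14 against all other cells. After thinning an Id3 UMI was found in 98.4% of satellite glia, and in 48.9% and 34.6% of PEP3_Trpm8 cells with and without a Trpm8 UMI. The part of glial RNA in the rise of Id3 was not tested. Sox11 rose by 1.24. Isl1, a homeodomain factor of sensory neurons, was at 358 ± 63.5 against 148 ± 6.67 CPM (log2 fold change 1.25). Runx1, which directs the nociceptor lineage, was at 234 ± 17.5 against 131 ± 6.08 CPM (0.83, under the 2-fold limit, adjusted p = 8.4e-07). Isl1 and Runx1 had their highest mean of the 12 types here. The ETS factors Etv1 and Etv5 were lower, at log2 fold changes of -5.10 and -4.15.

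Of 17 trophic factor receptors, 2 were higher and 10 lower, but 7 and 6 of 18 with equal weights. Gfra3, the artemin receptor, was at 259 ± 77.6 against 83.9 ± 11.4 CPM (log2 fold change 1.60), and Ret, its signalling partner, was lower at 64.6 ± 23.3 against 253 ± 32.1 CPM (-1.94). The mean of Gfra3 was higher still in PEP1_Slc7a3.Sstr2 (435 CPM, log2 fold change -0.76) and PEP1_S100a11.Tagln2 (496 CPM, -0.97). PEP3_Trpm8 was lower in 5 of 5 mice against each (edgeR adjusted p = 0.00088 and 0.0012), but both differences were under the 2-fold limit and not called. Kit and Lpar3 were among the lower genes in the main comparison but had log2 fold changes of 0.019 and 2.74 with equal weights.

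Cadherins and stress genes complete the lists. Of 18 cadherin genes 4 were higher and 4 lower, but 10 and 2 of 21 with equal weights, with Pcdh19 at a log2 fold change of 2.72. Of 23 stress and dissociation genes 5 were higher and none lower (median log2 fold change 0.72), and 8 and none of 24 with equal weights. The immediate early gene Fos was at 856 ± 52.0 against 252 ± 34.9 CPM (1.76) and highest here of the 12 neuron types, and after thinning its UMIs were in 98.2% of the cells and 95.2% of satellite glia. None of the 13 mitochondrial genes was called in either weighting.

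**Figure D2:**
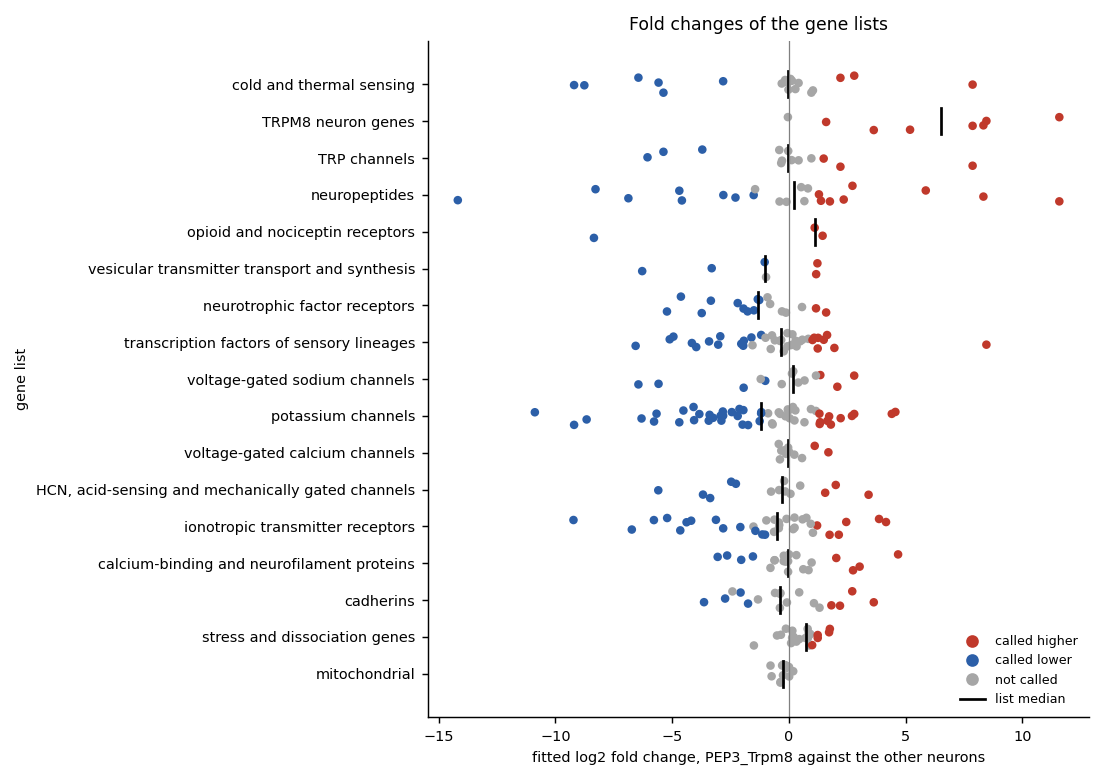
Fitted log2 fold change of each tested gene of 17 lists, PEP3_Trpm8 against the summed other neurons, 1 row per list, with the list median as a black bar. Red and blue points were called higher and lower, and grey points were not called. The TRPM8 neuron genes lie to the right with a median of 6.53, and the potassium channels to the left with a median of -1.18, a list whose counts are 17 and 16 of 54 with equal weights. Fitted values of genes at 0 in PEP3_Trpm8 depend on the prior count and are no bounds.

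The next comparison asked how the type differs from its nearest neighbours. By the mean Pearson correlation of log2(CPM + 1) over 16248 genes within mice, a description across genes, these were the peptidergic types PEP1_Slc7a3.Sstr2 (0.919), PEP1_Dcn (0.908) and PEP1_S100a11.Tagln2 (0.907). The Th type followed at 0.898. PEP3_Trpm8 had far less Calca than each of them and more Foxp2, Penk and Hpca, while Tac1 was not called against any. The 3 comparisons share the PEP3_Trpm8 sums, and values below follow the order of the types above.

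Against PEP1_Slc7a3.Sstr2, 599 of 8703 genes were higher (6.88%) and 732 lower (8.41%). Against PEP1_Dcn, 635 of 8772 were higher (7.24%) and 941 lower (10.7%). Against PEP1_S100a11.Tagln2, 684 of 8386 were higher (8.16%) and 812 lower (9.68%). All 3 fits used the test and limits of the first comparison.

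Peptide genes separated it from these neighbours. Pnoc had 0, 1 and 0 UMIs in the 3 types, and Penk had 2, 2 and 0. Penk was thus at least 1360.2-fold higher in pooled counts than in PEP1_S100a11.Tagln2. Calca was at 446 ± 111 CPM in PEP3_Trpm8, against 10482 ± 1498, 9700.1 ± 1619 and 13435 ± 2504 CPM, log2 fold changes of -4.55, -4.45 and -4.94. Tac1 did not pass the threshold against any of them, with log2 fold changes of -0.16, 0.49 and -0.38.

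The channel genes Scn10a and Trpa1 and the calcium-binding genes Hpca and Calb1 each differed in 1 direction from all of these neighbours. Scn10a had log2 fold changes of -5.81, -5.44 and -6.42, and Trpa1 of -5.27, -7.17 and -4.79. Hpca was higher by 4.07, 3.71 and 4.55 and Calb1 by 6.22, 6.57 and 7.35 on the log2 scale. Trpv1 was not called against any of the 3, at 0.88, -0.55 and 0.16.

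Other genes differed less evenly, and the 3 differences were not tested against each other. Gpr26 was at 10.3 ± 2.39 CPM in PEP1_Slc7a3.Sstr2 (log2 fold change 1.44), at 0.129 ± 0.289 CPM in PEP1_Dcn and at 0 UMIs in PEP1_S100a11.Tagln2, where the pooled level in PEP3_Trpm8 was at least 92.1-fold higher. Kcnk2 was higher than in PEP1_S100a11.Tagln2 (log2 fold change 3.38) and was not called against PEP1_Slc7a3.Sstr2 (0.37) or PEP1_Dcn (-0.45). Th, the gene of the catecholamine enzyme, was higher than in PEP1_Slc7a3.Sstr2 (4.18) and PEP1_S100a11.Tagln2 (5.40) and lower than in PEP1_Dcn (-1.52). Genes at 0 UMIs here included the galanin receptor gene Galr1, at least 28.2-fold lower than in PEP1_Dcn, and the kinase gene Ptk2b, at least 34.1-fold lower than in PEP1_Slc7a3.Sstr2.

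**Figure D3:**
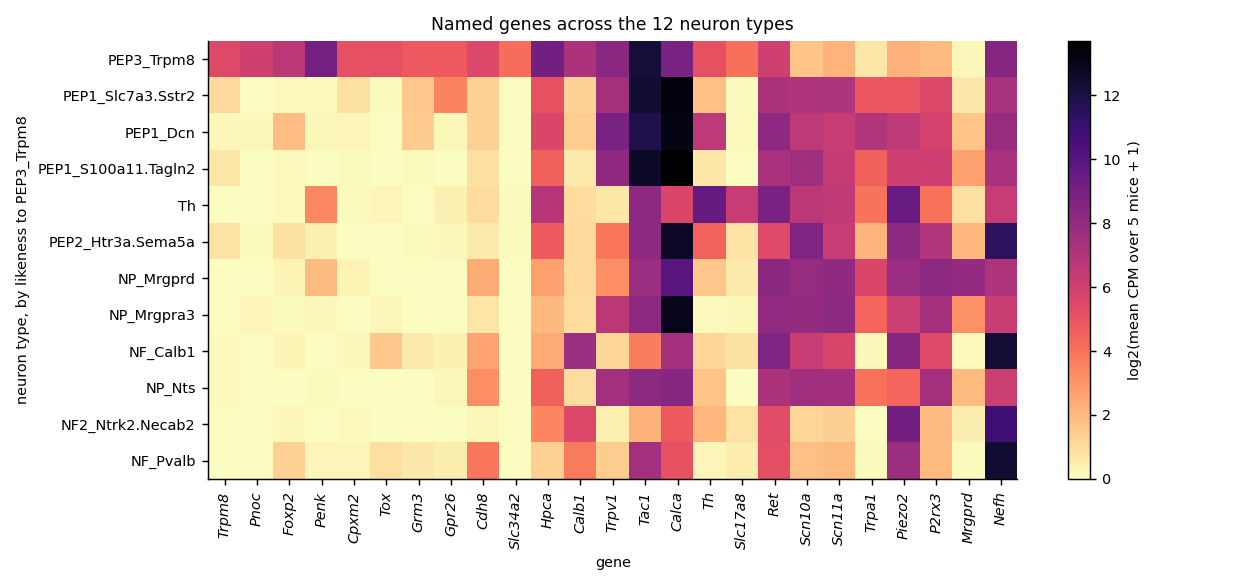
Mean level over 5 mice, as log2(CPM + 1), of 25 named genes in the 12 neuron types, with PEP3_Trpm8 on top and the other types below it in order of likeness. Trpm8, Pnoc, Foxp2 and Penk are dark in the top row, Calb1 is also dark in NF_Calb1 and Trpv1 in PEP1_Dcn, and Scn10a, Scn11a, Piezo2 and P2rx3 are pale in the top row.

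The last comparison asked whether cells of the type with and without a Trpm8 UMI differ in other genes. They did, with the largest fold in Trpv1, which was high in the cells without a Trpm8 UMI. Each mouse gave 1 sum of either kind, from 7, 7, 21, 30 and 25 cells with a Trpm8 UMI and 2, 11, 7, 23 and 35 cells without, all thinned to 10000 UMIs. The median depth before thinning was 32885 UMIs with and 27173 without a Trpm8 UMI, so a cell without one may still express the gene. The median mitochondrial share was lower with a Trpm8 UMI in all 5 mice (3.49% against 4.23% over all cells). In edgeR's quasi-likelihood test with the mouse as a block and at an adjusted p under 0.05, 39 of 2598 genes were higher in cells with a Trpm8 UMI (1.5%) and 61 were lower (2.35%). These counts were 14 and 24 without mouse 4, 10 and 17 without mouse 5, and 17 and 27 with no block for the mouse.

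Trpv1 was at 85.7, 14.3, 105, 6.67 and 20 CPM in the thinned cells with a Trpm8 UMI of mice 1 to 5 and at 1650.0, 1291, 657, 500 and 374 CPM in those without. Every mouse was lower with a Trpm8 UMI and the groups did not overlap (log2 fold change -4.11, SE 0.29, edgeR adjusted p = 4.4e-09). A Trpv1 UMI was found in 15.6% of the 90 cells with and 61.5% of the 78 cells without a Trpm8 UMI, against 2.01% of satellite glia. The call held in all 9 alternatives tried, with log2 fold changes between -5.86 and -3.83.

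Calb1 followed Trpv1. It was at 14.3, 28.6, 14.3, 30.0 and 36.0 CPM with and at 350.0, 636, 143, 343 and 303 CPM without a Trpm8 UMI (log2 fold change -3.52, SE 0.25), lower in 5 of 5 mice with no overlap. The other genes of largest fold among those lower were the secreted peroxidase Gpx3 (-3.70), found in 2.22% and 47.4% of cells, the transcript 1700086L19Rik (-2.72), the surface protein Thy1 (-2.12) and Tmem255a (-1.80). For Gpx3, mouse 3 ran against the other 4, at 71.4 CPM with and 42.9 CPM without a Trpm8 UMI.

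The genes of largest fold on the other side rose in every mouse. Latexin, Lxn, was at 4843, 5571, 3662, 4487 and 3836 CPM with and 200.0, 855, 1343, 2357 and 1677 CPM without, higher in 5 of 5 mice with no overlap (log2 fold change 1.64, SE 0.22, edgeR adjusted p = 9.3e-05). Rarres1, a retinoic acid responsive gene, was at 955 ± 164 against 241 ± 173 CPM (1.63). The others were Vim (1.86), Cpne5 (1.85), Ndrg1 (1.68) and Rgs4 (1.37). Vim and Ndrg1 UMIs were also found in 100% and 99.6% of satellite glia, and the part of glial RNA in their difference was not tested. S100b, likewise found in 100% of satellite glia, was called in the opposite direction (log2 fold change -1.68, edgeR adjusted p = 0.0057). It was lower with a Trpm8 UMI in 4 of 5 mice, with mouse 5 at 68 against 437 CPM.

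Genes that mark the whole type had smaller folds or none called. Isl1 and Hpca were higher with a Trpm8 UMI, at log2 fold changes of 0.80 and 0.63. For Foxp2 (0.60), Penk (0.86) and Tac1 (-0.05) no call was made, and Pnoc, at 94.6 ± 30.6 against 23.8 ± 40.6 CPM, missed the threshold (1.39, edgeR adjusted p = 0.055). Of the 39 genes higher with a Trpm8 UMI, 17 were also higher in the type against the other neurons, and of the 61 lower genes 19 were, among them Trpv1, Calb1, Abi3bp and Gfra3. The first comparison called 8.02% of its 11660 genes higher. That share was not counted among the 2598 genes tested here, so no excess is read from these overlaps. The stress genes Atf3 (-0.85) and Jun (-0.62) were also lower with a Trpm8 UMI, in 5 of 5 mice, and the part of cell stress in these differences was not tested. Pdyn did not pass the count filter of this comparison and was not tested. It was found in 0 of 90 thinned cells with a Trpm8 UMI, which allows up to 3.33%, and in 17.9% of those without.

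**Figure D4:**
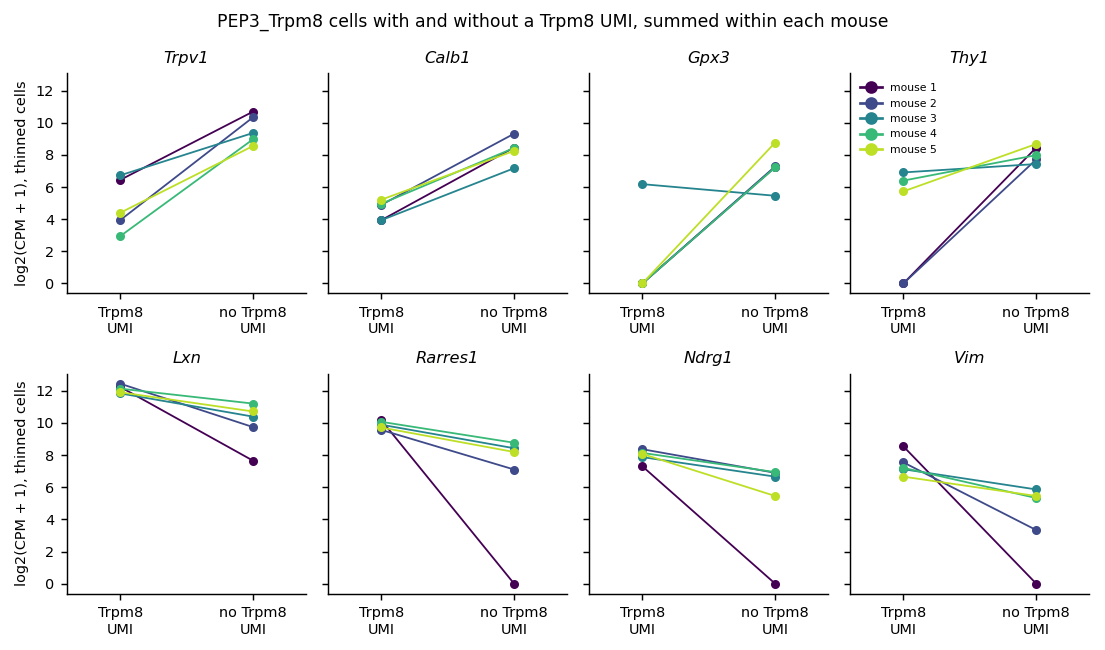
Level of 8 genes, as log2(CPM + 1) after thinning, in the PEP3_Trpm8 cells with and without a Trpm8 UMI, summed within each mouse, with 1 line per mouse. Trpv1, Calb1 and Thy1 are higher without a Trpm8 UMI in all 5 mice and Gpx3 in 4 of 5, and Lxn, Rarres1, Ndrg1 and Vim are higher with one in all 5. Mouse 1 has 2 cells without a Trpm8 UMI.

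Counted cell by cell at 10000 UMIs, 46 cells held a UMI of Trpm8 and none of Trpv1, 54 held Trpv1 and no Trpm8, 8 held both and 60 held neither. By mouse, the cells with both numbered 0, 1, 4, 0 and 3. The cells with Trpv1 alone numbered 2, 10, 9, 13 and 20. For Calb1 the same counts over all mice were 44 with Trpm8 alone, 32 with Calb1 alone, 10 with both and 82 with neither, whereas Tac1 was found in all 54 cells with Trpm8 and in 113 of those without.

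**Figure D5:**
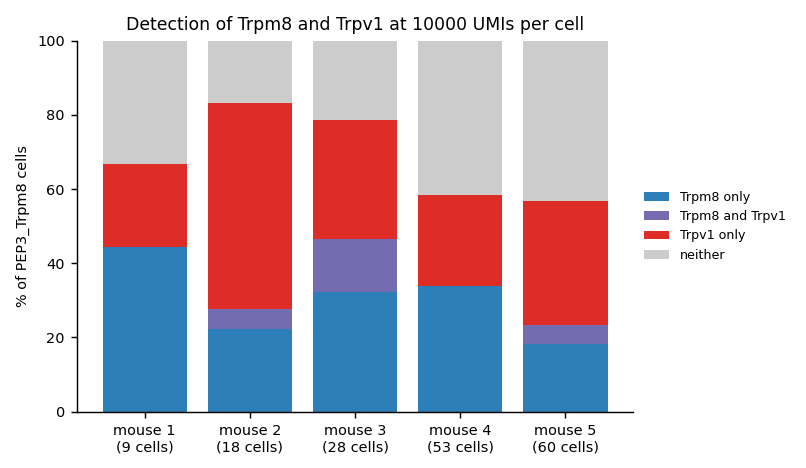
Share of the PEP3_Trpm8 cells of each mouse with a UMI of Trpm8 alone, of both Trpm8 and Trpv1, of Trpv1 alone or of neither, after each cell was thinned to 10000 UMIs. Cells with both are absent in mice 1 and 4 and number 1, 4 and 3 in mice 2, 3 and 5, while cells with Trpv1 alone occur in every mouse.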

How the data were processed

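The authors aligned 3′ reads of 5 libraries to mm10 with Cell Ranger, filtered and clustered the cells with Seurat, and deposited raw UMI counts in 17271 rows with a cell type name per cell. No doublets were called here. The 4 rows that name no mouse gene (6.37e-05% of UMIs) were left out. The 5 library identifiers in the cell names match no sample label, so each was taken as 1 mouse and numbered in order of identifier.

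Counts were summed per mouse and type and scaled to CPM. The quasi-likelihood test of edgeR (version 4.0.16, run in R 4.3.3) followed filterByExpr and TMM scaling, with Benjamini-Hochberg adjustment, and DESeq2 1.42.0 served as an alternative. The code was tested on simulated data. Folds against a group at 0 use a floor of 3 UMIs. Both sums of a mouse come from 1 animal. Their deviations from the group means correlated across genes at 0.0312 to 0.133 against the other neurons, 0.0244 to 0.279 against the similar types and -0.00117 to 0.217 between cells with and without a Trpm8 UMI. Alternatives were the mouse block, DESeq2, no filter, equal type weights, all other cells, at most 10% mitochondrial UMIs, other thinning and leaving out each mouse.

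Genes were named by a rule: Trpm8 and Pnoc, the 15 largest rises among genes called higher, higher in every mouse and with a UMI in at least 25% of cells, the 10 largest falls among genes at 50 CPM or more in the other neurons, up to 6 called members per list and direction, a set of genes regardless of call, and the largest folds against each similar type (8 each way) and between Trpm8 classes (6 each way). A few genes that the rule names are not reported here. Members, lists and tests were chosen with earlier results of these data known.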

Additional observations from a re-analysis of the deposited data

Results flagged for a closer look

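The median of 25154 UMIs per PEP3_Trpm8 cell in mouse 5 lay apart from the other 4 mice, whose medians ran from 32249 to 34974 UMIs. The gap to the nearest mouse was 0.723 of the whole range, above the critical value of 0.71 for 5 samples. It was the 1 of 19 values examined that passed this limit, and chance passes about 1 group in 20. Without mouse 5, 847 genes were higher and 1241 lower than in the other neurons.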

How the results depend on the processing

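Against the other neurons the counts stayed within 1.5 times of 935 higher and 1271 lower under every alternative except the 805 lower with equal type weights. Leaving out a mouse gave 837 to 1009 higher and 1138 to 1241 lower, and the replicate block 931 and 1243. Of 1422 alternative values for 130 named genes, 1358 kept direction and side of the threshold, 46 missed the threshold, 3 newly passed it and 15 changed sign. With equal weights those were Kit (0.019), Lpar3 (2.74), Pvalb (0.11), Pirt (0.22), Kcna2 (0.76) and Th (3.22). Against all other cells they were Id3 (-0.14), Pirt (0.038) and Kcna2 (0.065). Kcna2 also changed sign with the replicate block (0.072) and with at most 10% mitochondrial UMIs (0.10). On leaving out a mouse Pirt ran from -0.093 to 0.010 and Kcna2 from -0.16 to 0.090, and the cause of these changes was not tested. With no filter on low counts, which adds genes to the test, 1084 genes were higher than in PEP1_Slc7a3.Sstr2, 1414 lower than in PEP1_Dcn and 1132 higher than in PEP1_S100a11.Tagln2.

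The comparison of Trpm8 classes is the least stable. The counts of 39 higher and 61 lower became 17 and 27 with no replicate block, 112 and 200 with no thinning, 13 and 30 with DESeq2, and 10 to 52 and 17 to 83 on leaving out a mouse. The lowest came without mouse 5 (10 and 17) and without mouse 4 (14 and 24), where 1579 and 1576 genes could be tested instead of 2598. Of 97 alternative values for the 12 genes of largest fold, 94 kept the call and none changed sign. The 3 that lost it were Gpx3 and Thy1 with DESeq2 (adjusted p = 0.054 and 0.066) and Tmem255a with no replicate block (adjusted p = 0.16). The mean share of cells with a Trpm8 UMI, 35.2%, was 21.2% at 5000 UMIs and 58.0% unthinned, so it follows depth. Depth limits sparse receptor genes most, and mouse 1 rests on 9 cells.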
